A study of Mus musculus with 27 samples.

Results

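The 9 genes described here encode the main glucose and phosphate carriers of the kidney tubule and 1 scaffold protein that binds some of them: Slc5a1 and Slc5a2, Slc2a1 and Slc2a2, Slc34a1 and Slc34a3, Slc20a1 and Slc20a2, and Pdzk1. They were chosen by gene symbol, and all 9 were found among the 19392 genes of the deposited table of expression values in FPKM, that is, fragments counted on a gene for each kilobase of its transcript and scaled to the library's mapped fragments. All 9 were above 0 FPKM in every kidney and entered the test with 18188 genes. The samples were left kidneys of wild-type C57BL/6 mice, 3 mice at each of 9 ischemia times, 27 kidneys in all. The left renal pedicle was clamped for 0, 16, 18, 20, 22, 24, 26, 28 or 30 min with the animal kept at 37°C, and kidneys were taken 24 h later for RNA-Seq of whole tissue. The 0 min group is labelled sham, and the protocol given with all samples, sham included, has the right kidney removed. Since each library holds all cells of a kidney, fewer tubule cells and less RNA per tubule cell cannot be told apart.

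Filtered glucose and phosphate are taken back almost wholly in the proximal tubule, where carriers of the brush border use the sodium gradient and carriers of the basal membrane let glucose leave for the blood. Slc5a2 (SGLT2) does most glucose uptake in the early proximal tubule and Slc5a1 (SGLT1) takes up the remainder further along, while Slc2a2 (GLUT2) and Slc2a1 (GLUT1) are the exits. Slc34a1 (NaPi-IIa) and Slc34a3 (NaPi-IIc) are the brush border phosphate carriers whose amount sets phosphate excretion, Pdzk1 (NHERF3) is a PDZ scaffold that binds them, and Slc20a1 (PiT1) and Slc20a2 (PiT2) are phosphate carriers found in most cells.

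Called differentially expressed genes (DEGs) had an adjusted p below 0.05 and an absolute log2 fold change above 1 in limma, fitted on quantile-normalized log2(FPKM + 1) over all 27 kidneys. "Rose" and "fell" are used for an adjusted p below 0.05 at any fold change. Fold changes on this scale can differ from ratios of the FPKM means, which are not quantile normalized. The FPKM of all genes summed to between 512453 and 554036 per kidney, and the number of reads is unknown. The defining markers of the proximal tubule were present in every group: their 7 genes summed to 3916 to 4135 FPKM at 0 min, 2385 to 3355 at 26 min, 1258 to 1519 at 28 min and 779 to 949 at 30 min. 4 kidneys stood apart by the summed FPKM of the collecting duct genes Aqp2 and Atp6v1g3: replicate 1 at 16 min (502), replicate 3 at 18 min (419.7), replicate 3 at 20 min (484) and replicate 3 at 30 min (494), against 149 to 334 in all others. Their thick ascending limb genes Umod and Slc12a1 summed to 2512, 1692, 2132 and 2176 FPKM, the first being the highest of all kidneys, and at 30 min the other two kidneys had 502 and 498. Values at 30 min are therefore also given without replicate 3, and values of the mild times without the other kidneys where a call changed. Leaving out replicate 3 at 18 min changed no limma call of the 9 genes.

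At 0 min the levels of the 9 genes spanned more than 2 orders of magnitude per unit of transcript length. Slc34a1 was highest with 2226 ± 179 FPKM (SD, n = 3), followed by Pdzk1 with 459 ± 10.1 FPKM and Slc5a2 with 126 ± 12.6 FPKM. Slc2a2 (45.7 ± 2.39 FPKM), Slc2a1 (31.8 ± 4.46 FPKM) and Slc5a1 (25.1 ± 2.90 FPKM) came next. Slc20a2 (16.1 ± 0.877 FPKM), Slc20a1 (16.0 ± 1.64 FPKM) and Slc34a3 (14.9 ± 2.39 FPKM) were lowest, and these 3 overlapped, as did Slc2a1 with Slc5a1. At 30 min Slc34a1 was still highest, with 440 ± 26.2 FPKM. Slc20a1 with 50.3 ± 10.4 FPKM then stood above Slc2a2, Slc20a2 and Slc5a1, and its lowest kidney was above the highest kidney of each of these.

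**Figure D1:**
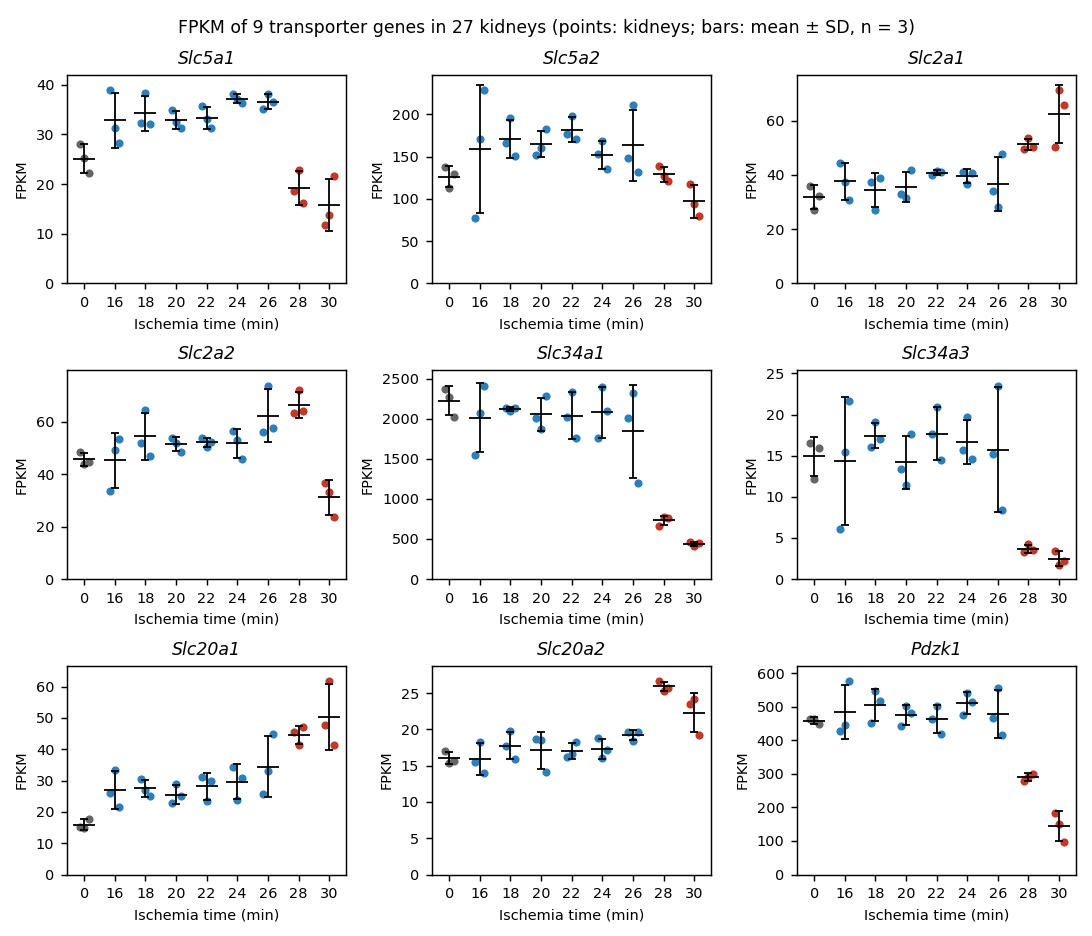
FPKM of the 9 genes in each of 27 kidneys (points) against ischemia time in min, with the mean and SD of 3 kidneys per time (bars) and an axis from 0 in every panel. The means of Slc34a1, Slc34a3 and Pdzk1 stayed near their 0 min level up to 26 min. Single kidneys were lower, down to 1195 FPKM of Slc34a1 at 26 min and 6.10 FPKM of Slc34a3 at 16 min. These genes were lower than at all other times in all 6 kidneys of 28 and 30 min, while Slc20a1 was above its 0 min kidneys at every other time.

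The question of the series was how injury changes with ischemia time, and each ischemia time was compared with the same 3 kidneys of 0 min, so that the 8 comparisons share their controls. From 16 to 26 min limma called 0 of the 9 genes at each of the 6 times, where it called 2.25%, 3.06%, 2.51%, 3.29%, 3.12% and 3.77% of all genes in order of time. At an unadjusted p below 0.05 the counts were 1, 2, 1, 1, 2 and 4 of 9, against 31.9%, 38.1%, 35.2%, 39.2%, 38.4% and 39.8% of all genes. Counts this small, out of 9 genes and with shared controls, cannot be told apart from the shares of all genes. At 28 min 3 of 9 genes were DEGs, against 8.48% of all genes: Slc20a1 was higher (4.27% of all genes were higher DEGs) and Slc34a1 and Slc34a3 were lower (4.21%). At 30 min 4 of 9 were DEGs, against 10.7% of all genes, with Slc20a1 higher (5.14%) and Slc34a1, Slc34a3 and Pdzk1 lower (5.59%). At any fold change 8 of 9 genes passed at 28 min and 8 of 9 at 30 min, against 48.2% and 52.3% of all genes, and Slc5a2 was the gene that did not. The median log2 fold change of the 9 genes was 0.06 at 28 min and -0.62 at 30 min, beside 0.00 over all genes at both times.

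**Figure D2:**
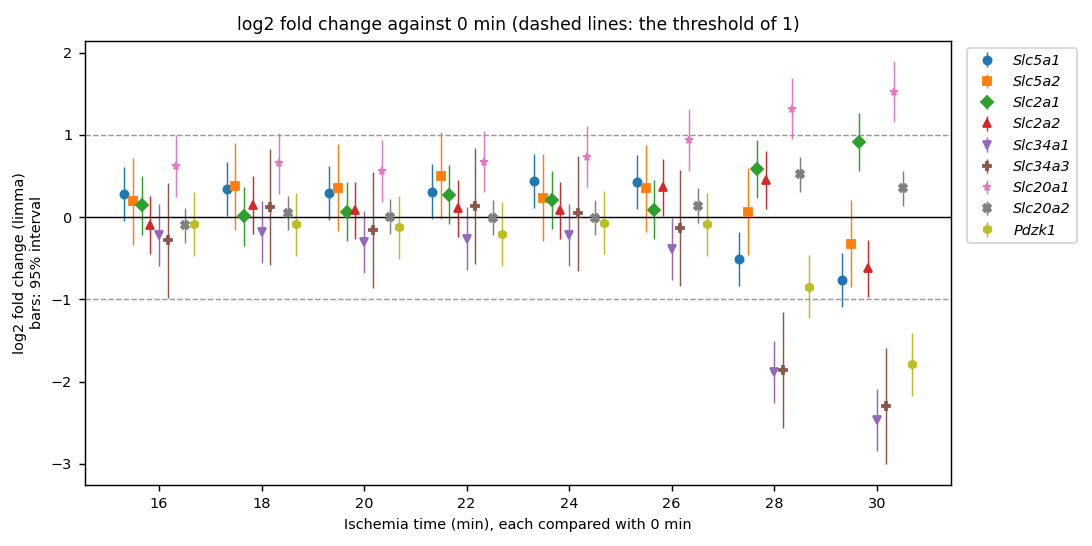
log2 fold change of each gene against 0 min (vertical axis, limma, bars are 95% intervals) at each ischemia time (horizontal axis, min), with dashed lines at 1 and -1. Slc34a1 (-2.46), Slc34a3 (-2.30) and Pdzk1 (-1.79) lie below -1 at 30 min and Slc20a1 (1.52) above 1, while the other 5 genes lie between the lines at every time.

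Slc34a1 (chr13:55399622-55414695, GRCm38.p6), the carrier of most proximal phosphate uptake in rodents, had the largest loss in FPKM. Its values were 2377, 2272 and 2028 FPKM at 0 min, and 1195, 2084 and 2416 FPKM as the lowest, the median and the highest of the 18 kidneys of 16 to 26 min. They were 667, 777 and 759 FPKM at 28 min and 460, 411 and 450 FPKM at 30 min. All 6 kidneys of 28 and 30 min were below all others, and the 28 min and 30 min kidneys did not overlap either. Against 0 min Slc34a1 fell by 1.88 on the log2 scale at 28 min (SE 0.18, adjusted p = 8.63e-08) and by 2.46 at 30 min (SE 0.18, adjusted p = 1.27e-09) where the change in mean FPKM was -80.2%. Without replicate 3 at 30 min the log2 fold change was -2.49 (adjusted p = 1.3e-08).

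The drop lay between 26 and 28 min. At 26 min Slc34a1 had 2014, 2323 and 1195 FPKM, and replicate 3 was the lowest of the 18 mild kidneys. The same kidney had 8.38 FPKM of Slc34a3, against 15.3 and 23.5 in the other two kidneys of its group, and 44.7 FPKM of Slc20a1, against 25.6 and 33.1. It also had the highest sum of the injury genes Havcr1, Vcam1 and Krt20 at 26 min, 736 FPKM against 519 and 495, and the part of injury in these values was not tested. From 26 to 28 min Slc34a1 fell by 1.50 on the log2 scale (SE 0.18, adjusted p = 3.28e-05), and by 1.78 when replicate 3 at 26 min was left out. From 28 to 30 min it fell again, by 0.58 (SE 0.18, adjusted p = 0.0378), less than the fold that a DEG requires. That last step no longer passed when any 1 of the 6 kidneys compared was left out, with adjusted p of 0.056 to 0.12 and log2 fold changes of -0.52 to -0.64, nor in a fit of the 2 groups alone (adjusted p = 0.052). In that fit of the 2 groups 0 of 16916 genes were DEGs.

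Slc34a3 (chr2:25228897-25234270), the other brush border carrier of the family, was far lower, the FPKM of Slc34a1 being 127 to 187 times its own at 0 min. Slc34a3 had 16.6, 12.2 and 16.0 FPKM at 0 min, 3.34, 4.21 and 3.47 FPKM at 28 min and 3.45, 1.71 and 2.21 FPKM at 30 min. The 18 kidneys of 16 to 26 min had between 6.10 and 23.5 FPKM with a median of 15.9, and all of them were above all 6 kidneys of 28 and 30 min. Against 0 min Slc34a3 fell by 1.86 on the log2 scale at 28 min (SE 0.34, adjusted p = 0.000126) and by 2.30 at 30 min (SE 0.34, adjusted p = 8.75e-06), or by 2.24 without replicate 3 at 30 min. From 26 to 28 min it fell by 1.73 (SE 0.34, adjusted p = 0.00139). From 28 to 30 min the log2 fold change was -0.44 with a 95% interval of -1.15 to 0.26 (adjusted p = 0.457), and the kidneys overlapped.

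Pdzk1 (chr3:96829456-96870926), whose protein holds the phosphate carriers and other solute carriers at the brush border, fell between 26 and 28 min and again between 28 and 30 min. Its values were 465, 464 and 447 FPKM at 0 min, 277, 291 and 301 FPKM at 28 min and 184, 151 and 96.1 FPKM at 30 min. The 18 mild kidneys had 415 FPKM as the lowest, 480 as the median and 577 as the highest value. All of them were above the kidneys of 28 min, which in turn were above those of 30 min. Against 0 min Pdzk1 fell by 0.84 on the log2 scale at 28 min (SE 0.18, adjusted p = 0.000746), less than the fold of a DEG, and by 1.79 at 30 min (SE 0.18, adjusted p = 9.74e-08). The step from 26 to 28 min was -0.76 (SE 0.18, adjusted p = 0.00694), and without replicate 2 at 26 min it had an adjusted p of 0.053 (-0.61). The step from 28 to 30 min was -0.95 (SE 0.18, adjusted p = 0.00279). In the fit of the 2 groups alone, where 0 of 16916 genes were DEGs, it had an adjusted p of 0.07. It was past the fold of a DEG without quantile normalization (-1.06), with FPKM rescaled to a constant sum (-1.04) and without replicate 1 at 30 min (-1.15). Without replicate 3 at 30 min, which had the lowest Pdzk1, this step was -0.69 (adjusted p = 0.021) and the fall against 0 min was 1.54 on the log2 scale (a log2 fold change of -1.54).

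The ubiquitous phosphate carrier Slc20a1 (chr2:129198773-129211615) moved the other way and was the only one of the 9 genes past an adjusted p of 0.05 at all 8 times. Slc20a1 had 15.05, 14.98 and 17.85 FPKM at 0 min and 25.9, 33.4 and 21.6 FPKM at 16 min. It had 45.6, 41.5 and 47.1 FPKM at 28 min and 47.6, 61.8 and 41.5 FPKM at 30 min. All 24 kidneys with ischemia were above all 3 kidneys of 0 min. At 16 min Slc20a1 rose by 0.62 on the log2 scale (SE 0.18, adjusted p = 0.0205), and 19% of all genes passed at any fold change in this comparison. From 18 to 24 min the log2 fold changes were 0.65, 0.56, 0.68 and 0.74, in comparisons where 27.8%, 22.8%, 28.8% and 28.3% of all genes passed. These early calls were weak. At 16 min the adjusted p was over 0.05 without replicate 1 (0.059) or 2 (0.074) at 0 min, without replicate 2 at 16 min (0.13) and in a fit of the 2 groups alone (0.096). At 20 min it was so without replicate 1 (0.08) or 2 (0.092) at 0 min and without replicate 2 (0.12) or 3 (0.055) at 20 min, and at 18 min without replicate 1 at 18 min (0.0501). At 26 min the log2 fold change of Slc20a1 was 0.94 (SE 0.18, adjusted p = 0.000601, with 30.1% of all genes passing). The 26 min value was past the fold of a DEG without quantile normalization (1.03), with FPKM rescaled to a constant sum (1.08) and without replicate 1 at 26 min (1.13).

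At 28 min the log2 fold change of Slc20a1 against 0 min was 1.32 (SE 0.18, adjusted p = 5.28e-06) and at 30 min 1.52 (SE 0.18, adjusted p = 5.64e-07), or 1.64 without replicate 3 at 30 min. The mean FPKM at 30 min was 3.15 times that at 0 min. The steps from 26 to 28 min (0.38, adjusted p = 0.152) and from 28 to 30 min (0.21, adjusted p = 0.531) did not pass, although without replicate 3 at 26 min the former was 0.58 with an adjusted p of 0.028. In these steps the kidneys overlapped.

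Slc20a2 (chr8:22476700-22569616), the other member of that family, was flat up to 24 min in the sense that its log2 fold changes against 0 min lay between -0.10 and 0.05, and the smallest adjusted p of these was 0.551. It was 0.14 at 26 min (adjusted p = 0.348). Its kidneys had 17.1, 15.4 and 15.7 FPKM at 0 min, 26.7, 25.4 and 25.8 FPKM at 28 min and 23.5, 24.1 and 19.2 FPKM at 30 min. The 28 min kidneys were above all 24 others, and those of 30 min were above all of 0 min but lower than those of 28 min. Slc20a2 rose by 0.52 on the log2 scale at 28 min (SE 0.10, adjusted p = 0.00025) and by 0.35 at 30 min (SE 0.10, adjusted p = 0.00618), or by 0.45 without replicate 3 at 30 min.

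The sequences before the transcription start are shown for the 3 phosphate carriers that were DEGs, because Slc34a1 and Slc34a3 fell while Slc20a1 rose. They are RefSeq windows of GRCm38.p6, the build named in the submitters' processing notes, each running from 250 bases before the start site of the table to the last base outside the annotated gene. Slc34a1 is shown at chr13:55399398-55399621 on the forward strand, Slc34a3 at chr2:25234271-25234484 on the reverse strand and Slc20a1 at chr2:129198523-129198772 on the forward strand. Capitals mark GTTAAT, a recognition core of HNF1, or its reverse complement in Slc34a1, and CACGTG, the E-box, in Slc20a1. No capitals stand in Slc34a3.
Slc34a1: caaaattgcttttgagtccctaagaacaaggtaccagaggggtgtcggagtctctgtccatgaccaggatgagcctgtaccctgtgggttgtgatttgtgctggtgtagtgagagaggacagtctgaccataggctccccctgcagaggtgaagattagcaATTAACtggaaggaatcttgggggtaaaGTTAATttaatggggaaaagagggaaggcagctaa
Slc34a3: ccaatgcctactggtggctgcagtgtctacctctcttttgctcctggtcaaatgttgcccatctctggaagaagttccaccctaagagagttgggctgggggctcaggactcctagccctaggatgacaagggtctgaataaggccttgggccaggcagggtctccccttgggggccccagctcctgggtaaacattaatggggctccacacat
Slc20a1: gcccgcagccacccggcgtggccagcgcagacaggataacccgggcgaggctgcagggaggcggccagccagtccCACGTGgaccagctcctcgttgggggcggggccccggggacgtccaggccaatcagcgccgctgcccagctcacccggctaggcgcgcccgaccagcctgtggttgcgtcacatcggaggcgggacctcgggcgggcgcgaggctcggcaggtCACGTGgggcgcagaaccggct

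Of the 9 genes 7 had windows in the table, 9 windows in all, and Slc5a2 and Slc20a2 are named only. Both strands of the 250 bases were searched for GTTAAT, for CACGTG, for TGANTCA (the AP-1 site) and for TATAAA (the TATA box), letters chosen after the sequences were seen. The Slc34a1 window held GTTAAT on the reverse strand at -89 to -84 and on the forward strand at -61 to -56, counted from the start site of the table, and 6.43% of all 32851 windows of this length held it. A stretch of bases after this Slc34a1 start site was not found in the annotated transcripts of the gene, so these distances are less certain. The first Slc20a1 window held CACGTG at -175 to -170 and at -22 to -17, and the Slc5a1 window held it at -143 to -138. CACGTG was present in 6.02% of all windows. TGANTCA (6.75% of all windows) and TATAAA (12.4%) matched in none of the 9 windows. A match describes the letters of the window and no binding was measured.

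Among the glucose carriers the direction of change differed by gene and by time. Slc5a1 (chr5:33104219-33162699), the high-affinity carrier of the late proximal tubule, was higher after mild ischemia and lower after severe ischemia. Slc5a1 had 28.0, 25.2 and 22.2 FPKM at 0 min, and 28.3, 35.0 and 38.9 FPKM as the lowest, the median and the highest of the 18 kidneys of 16 to 26 min. It had 18.6, 22.9 and 16.2 FPKM at 28 min and 11.8, 13.7 and 21.7 FPKM at 30 min. All 18 mild kidneys were above all kidneys of 0, 28 and 30 min. Slc5a1 rose by 0.44 on the log2 scale at 24 min (SE 0.16, adjusted p = 0.0407) and by 0.43 at 26 min (SE 0.16, adjusted p = 0.0435). At 16, 18, 20 and 22 min the log2 fold changes were 0.28, 0.34, 0.29 and 0.31, with adjusted p between 0.121 and 0.243. The calls at 24 and 26 min were fragile. With the replicate number as a block the adjusted p was 0.051 and 0.054, with a pseudocount of 0.1 FPKM it was 0.051 at 26 min, and leaving out 1 kidney took it over 0.05 in most cases: without replicates 2 or 3 at 0 min or any kidney of 24 min it was 0.076 to 0.16 at 24 min, and without replicates 2 or 3 at 0 min or any kidney of 26 min it was 0.067 to 0.17 at 26 min.

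From 26 to 28 min Slc5a1 fell by 0.94 on the log2 scale (SE 0.16, adjusted p = 0.000417), and without replicate 2 at 28 min the change was -1.06. At 28 min Slc5a1 was at -0.51 against 0 min (SE 0.16, adjusted p = 0.011), with an adjusted p of 0.053 without quantile normalization or with FPKM rescaled to a constant sum, 0.058 without replicate 1 at 0 min and 0.067 without replicate 3 at 28 min. At 30 min it fell by 0.77 on the log2 scale against 0 min (SE 0.16, adjusted p = 0.000349). This value rests in part on replicate 3 at 30 min, a kidney with high thick ascending limb markers for its group, which had the highest Slc5a1 of its group. Without that kidney Slc5a1 was a DEG, with a log2 fold change of -1.01 (adjusted p = 2.8e-06).

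Slc5a2 (chr7:128265683-128272430), the bulk glucose carrier of the early proximal tubule and the target of the gliflozin drugs, did not pass in any comparison with 0 min when all 27 kidneys were fitted. It had 137, 112.5 and 129 FPKM at 0 min, 139, 127 and 121 FPKM at 28 min and 118, 93.4 and 79.8 FPKM at 30 min, so that the groups of 0 and 30 min overlapped. Its 18 mild kidneys ranged from 77.7 to 229 FPKM with a median of 167, and both ends of this range were kidneys of 16 min. The log2 fold change of Slc5a2 at 30 min was -0.33 with a 95% interval of -0.85 to 0.20 (adjusted p = 0.305). This interval includes the value of Slc5a1 at 30 min, -0.77. It was -0.22 when replicate 3 at 30 min was left out. At 16 min it was 0.19 (adjusted p = 0.671), but 0.63 (adjusted p = 0.027) without replicate 1, the kidney of that group with the lowest Slc5a2 and with the highest thick ascending limb and collecting duct sums of all 27 kidneys, whose part in this value was not tested, and a fit of the 2 groups alone gave an adjusted p of 0.0097 at 22 min (0.53). Against the mild kidneys the 6 kidneys of 28 and 30 min were lower by 0.47 on the log2 scale (log2 fold change -0.47, SE 0.15, adjusted p = 0.0107).

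The exit carrier Slc2a2 (chr3:28697903-28728361) was higher than at 0 min after 28 min and lower after 30 min. Slc2a2 had 48.4, 43.8 and 44.8 FPKM at 0 min, 63.3, 72.1 and 64.1 FPKM at 28 min and 36.6, 33.1 and 23.7 FPKM at 30 min. The 28 min kidneys were above and the 30 min kidneys below all 3 kidneys of 0 min. The 18 kidneys of 16 to 26 min had between 33.5 and 73.9 FPKM with a median of 52.9. At 26 min Slc2a2 had 55.95 to 73.9 FPKM, also above all kidneys of 0 min. There the limma log2 fold change was 0.36 (adjusted p = 0.112). The step from 26 to 28 min was 0.09 (adjusted p = 0.787), so the 28 min level did not stand out from that of 26 min. Against 0 min Slc2a2 rose by 0.45 on the log2 scale at 28 min (SE 0.17, adjusted p = 0.0305) and fell by 0.62 at 30 min (SE 0.17, adjusted p = 0.00366). In the direct comparison of 30 with 28 min Slc2a2 was the only DEG of the 9 genes (1.05% of all genes were DEGs, 0.649% lower), with a log2 fold change of -1.07 (SE 0.17, adjusted p = 0.000635). The 28 min rise had an adjusted p of 0.08 and 0.073 without replicates 2 and 3 at 0 min and of 0.11 without replicate 2 at 28 min. The call between 28 and 30 min depended on the kidneys used: without replicate 3 at 30 min the value was -0.90 (adjusted p = 0.005), under the fold of a DEG, and a fit of the 2 groups alone gave -1.05 with an adjusted p of 0.0546. In that fit of the 2 groups 0 of 16916 genes were DEGs. The fall against 0 min was then -0.44 (adjusted p = 0.034) without replicate 3 at 30 min.

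Slc2a1 (chr4:119108745-119137330), the GLUT of glycolytic cells and of later nephron segments, rose as Slc2a2 fell at 30 min. It had 36.1, 27.2 and 32.2 FPKM at 0 min, 49.7, 53.6 and 50.4 FPKM at 28 min and 50.4, 71.3 and 65.7 FPKM at 30 min. The highest of the 18 mild kidneys had 47.7 FPKM, below all 6 kidneys of 28 and 30 min. Slc2a1 rose by 0.59 on the log2 scale at 28 min (SE 0.17, adjusted p = 0.00714) and by 0.91 at 30 min (SE 0.17, adjusted p = 0.000137). The 30 min value was past the fold of a DEG without replicate 1 at 0 min (1.01) and without replicate 1 at 30 min (1.06), and was 0.85 without replicate 3 at 30 min.

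Within the mild range no gradual change with time was called in these genes. Limma called 0 of 9 genes in 26 min against 16 min, where 0% of all genes were DEGs, and 0 of 9 for the slope over the 6 times from 16 to 26 min, where 2 of 18188 genes passed (0.011%). At an unadjusted p below 0.05 there were 2 genes (Slc2a2 and Slc20a2) in the former, against 9.44% of all genes, and 1 (Slc2a2) in the latter, against 8.32%. From 26 to 28 min, in contrast, 2 of 9 genes were DEGs, both lower (Slc34a1 and Slc34a3), against 1.5% of all genes and 1.06% lower. At any fold change 6 of 9 passed, against 19.3% of all genes. Of these Slc5a1, Slc34a1, Slc34a3 and Pdzk1 fell and Slc2a1 (0.50, adjusted p = 0.0455) and Slc20a2 (0.39, adjusted p = 0.0115) rose. The rise of Slc2a1 did not hold without replicate 1 or 2 at 26 min or any kidney of 28 min (adjusted p 0.089 to 0.25), with a pseudocount of 0.1 FPKM (0.052), with rescaled FPKM (0.062) or in a fit of the 2 groups alone (0.099), and that of Slc20a2 had an adjusted p of 0.051 without replicate 2 at 26 min.

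When the 6 kidneys of 28 and 30 min were compared with the 18 of 16 to 26 min, 3 of 9 genes were DEGs, all lower, against 3.67% of all genes and 2.4% lower. These were Slc34a3 with a log2 fold change of -2.04 (SE 0.19, adjusted p = 2.99e-08), Slc34a1 with -1.91 (SE 0.10, adjusted p = 1.7e-11) and Pdzk1 with -1.21 (SE 0.11, adjusted p = 9.62e-09). Without replicate 3 at 30 min the same 3 genes were -2.01, -1.92 and -1.08, and without replicate 1 at 16 min -2.12, -1.95 and -1.23. Slc2a2 was at -0.20 (adjusted p = 0.0939), and at -0.23 (adjusted p = 0.0237) without replicate 1 at 16 min. Slc5a1 was at -0.99, just under the fold required, and was past it with a pseudocount of 0.1 FPKM (-1.03), without replicate 2 at 28 min (-1.05) and without replicate 3 at 30 min (-1.11). The kidneys did not overlap between the 2 ranges for 5 of 9 genes, Slc5a1, Slc34a1, Slc34a3 and Pdzk1 lower and Slc2a1 higher, against 14.7% of all genes.

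To compare genes with each other, the difference of log2(FPKM + 1) between 2 genes was taken within each kidney and the 6 kidneys of 28 and 30 min were set against the 18 mild kidneys by an exact permutation test (two-sided, 134596 arrangements, 6 pairs, Benjamini-Hochberg). The brush border and the ubiquitous phosphate carrier parted most: Slc34a1 minus Slc20a1 changed by -2.53 (95% interval -3.003 to -2.07, exact p = 7.43e-06, the smallest this test can give, adjusted p = 4.46e-05). Without replicate 3 at 30 min it was -2.50. In FPKM, Slc34a1 was 114 to 158 times Slc20a1 at 0 min, 14.6 to 18.7 times at 28 min and 6.64 to 10.8 times at 30 min. All 6 severe kidneys had a lower ratio than any of the 18 mild kidneys, of which replicate 3 at 26 min was lowest with 26.7.

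Slc34a1 also lost more than its scaffold, by -0.55 against Pdzk1 (95% interval -0.77 to -0.32, exact permutation adjusted p = 0.00111). The ratio of Slc34a1 to Pdzk1 was 4.53 to 5.11 at 0 min and 2.41 to 2.67 at 28 min. At 30 min it was 2.50 to 4.68, and the highest value was replicate 3, without which the difference was -0.69. For Slc34a1 against Slc34a3 no difference passed (0.23, 95% interval -0.03 to 0.48, exact permutation p = 0.0791). This pair depended on the pseudocount, which weighs on the low Slc34a3 values: with 0.1 FPKM in place of 1 FPKM the difference was 0.52 (exact permutation adjusted p = 0.00302), with Slc34a3 losing more, and on quantile-normalized values it was 0.12 (exact permutation adjusted p = 0.346). It also passed with rescaled FPKM (0.37) and without replicate 1 at 16 min (0.28) or replicate 1 at 30 min (0.32).

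Slc2a2 minus Slc2a1 changed by -0.80 (95% interval -1.30 to -0.30, exact permutation adjusted p = 0.00865), or by -0.57 without replicate 3 at 30 min (exact permutation adjusted p = 0.0345). Slc2a2 was 1.27 to 1.34 times Slc2a1 at 28 min, within the mild range, and 0.361 to 0.727 times at 30 min. Slc20a1 rose more than Slc20a2, by 0.27 (95% interval 0.05 to 0.48, exact permutation adjusted p = 0.0248). Without replicate 3 at 30 min the adjusted p was 0.0510 (0.24), and without replicate 2 at 30 min 0.0933 (0.19). Slc20a1 was 1.64 to 1.83 times Slc20a2 at 28 min, within the mild range of 1.22 to 2.28, and 2.03 to 2.56 times at 30 min. Only 1 of the 6 severe kidneys was above all 18 mild kidneys in this pair. Slc5a1 fell more than Slc5a2, the difference being 0.44 (95% interval 0.02 to 0.84, exact permutation adjusted p = 0.0482). This last call was weak, since leaving out any of 15 of the 24 kidneys moved the adjusted p to between 0.0510 and 0.139, with differences of 0.32 to 0.44. The 15 were all 3 kidneys of 18 and of 24 min, replicates 1 and 2 of 20 and of 30 min, replicates 1 and 3 of 26 and of 28 min, and replicate 1 of 22 min. Without replicate 3 at 30 min the difference was larger, 0.60 (exact permutation adjusted p = 0.0106).

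**Figure D3:**
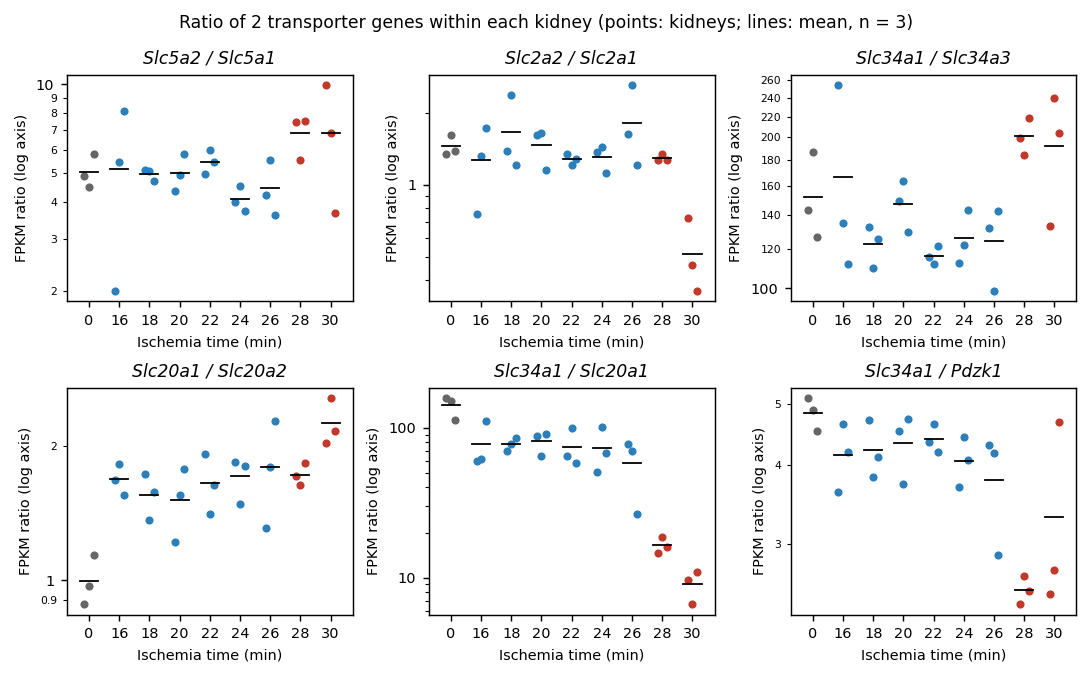
Ratio of the FPKM of 2 genes within each kidney (points, log axis) against ischemia time in min for the 6 pairs tested, with the mean of 3 kidneys per time (lines). The ratio of Slc34a1 to Slc20a1 fell to 6.64 to 10.8 at 30 min, and that of Slc2a2 to Slc2a1 was below 1 in all 3 kidneys of 30 min.

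Other genes of glucose transport and use were described by a list of 21, which also held related carriers of other substrates. In 16 min against 0 min 0 of 21 were DEGs by limma, and at any fold change 3 passed: Fbp1 (-0.86, adjusted p = 0.0062), Slc2a12 (-0.46) and Slc2a9 (-0.37), beside 19% of all genes. From 26 to 28 min 4 of 21 were lower DEGs (1.06% of all genes) and 0 higher: Slc5a8 (-1.94), G6pc (-1.77), Slc2a4 (-1.21) and Slc2a5 (-1.14). At 30 min against 0 min 11 of 21 were lower DEGs (5.59% of all genes) and 2 higher (5.14%), and the median of the list was -1.05 beside 0.00 over all genes. The largest change was in Slc5a8, a carrier of lactate and other monocarboxylates, at -3.72 (adjusted p = 2.7e-10). Slc5a8 had 60.6 ± 11.9 FPKM (SD, n = 3) at 0 min and 3.91 ± 0.991 FPKM at 30 min.

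G6pc and Slc37a4, which release free glucose from glucose-6-phosphate at the end of gluconeogenesis, fell by 2.86 and 1.58 on the log2 scale at 30 min, and Fbp1, an earlier enzyme of that route, by 2.03. G6pc had 79.6 to 182 FPKM at 0 min and 12.9 to 22.0 FPKM at 30 min. The fructose carrier Slc2a5 fell from 41.2 ± 3.40 to 6.36 ± 0.472 FPKM (-2.61) and the mannose and fructose carrier Slc5a9 from 10.9 ± 0.635 to 3.48 ± 1.18 FPKM (-1.55). The 2 higher DEGs were Hk2 (1.20), a hexokinase with 0.09 to 0.31 FPKM at 0 min and 1.57 to 1.87 FPKM at 30 min, and Txnip (1.22), an arrestin-like protein that lowers glucose uptake, which had 74.4 to 111 FPKM at 0 min and 136 to 265 FPKM at 30 min. Pdzk1ip1 (MAP17), a small membrane partner of SGLT2 and of Pdzk1, was at 834 ± 55.6 FPKM at 0 min and 599 ± 120 FPKM at 30 min. It fell by 0.59 on the log2 scale (adjusted p = 1.1e-05), less than Pdzk1 itself, and that difference was not tested.

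The list of 20 other genes of phosphate handling had 1 DEG at 16 min, Cyp24a1 (2.25% of all genes were DEGs), 1 at 28 against 26 min, Kl (1.5%), and 9 at 30 against 0 min (10.7%), of which 3 were higher and 6 lower. A single gene of 20 cannot be told apart from such shares. The list median at 30 min was -0.20. Kl (klotho), the kidney co-receptor for a phosphaturic bone hormone, fell from 171 ± 13.4 FPKM at 0 min to 44.4 ± 3.25 FPKM at 28 min and 27.7 ± 2.82 FPKM at 30 min (log2 fold change -2.55 against 0 min, adjusted p = 4.7e-08). Its step from 26 to 28 min was -1.36 (adjusted p = 0.00084). Slc17a3, an organic anion carrier of a family first described as phosphate carriers, fell by 1.74 on the log2 scale, and Vdr, the vitamin D receptor, by 1.30.

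Genes of vitamin D turnover were among the DEGs that rose. Cyp27b1, which makes active vitamin D, had 1.60 to 2.59 FPKM at 0 min and 55.2 to 86.4 FPKM at 30 min (log2 fold change 4.55, adjusted p = 1.8e-05). At 28 min 1 kidney, replicate 1, had 59.5 FPKM of Cyp27b1 and the other two had 1.28 and 3.82, so that the 28 min group was split. Cyp24a1, which breaks active vitamin D down, rose at 16 min (1.93, adjusted p = 0.0023), from 19.1 ± 8.78 to 77.7 ± 20.4 FPKM. Cyp24a1 reached 198 ± 103 FPKM at 28 min and had 65.1 ± 14.8 FPKM at 30 min (1.72 against 0 min). Slc34a2, the NaPi-IIb carrier of gut and lung, had 1.25 to 2.34 FPKM at 0 min and 10.3 to 12.7 FPKM at 30 min (1.95, adjusted p = 0.0011), while its paralogs Slc34a1 and Slc34a3 fell.

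Slc9a3r1 (NHERF1), the other PDZ scaffold of Slc34a1, rose at 16 min, from 173 ± 7.28 to 229 ± 21.5 FPKM (0.39, adjusted p = 0.0012). It had 227 ± 3.25 FPKM at 28 min and 145 ± 20.1 FPKM at 30 min, where its log2 fold change against 0 min was -0.13 (adjusted p = 0.17). Xpr1, the phosphate exporter, fell by 0.78 on the log2 scale at 30 min (adjusted p = 7.8e-08), from 18.6 ± 0.753 to 11.2 ± 0.785 FPKM.

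**Figure D4:**
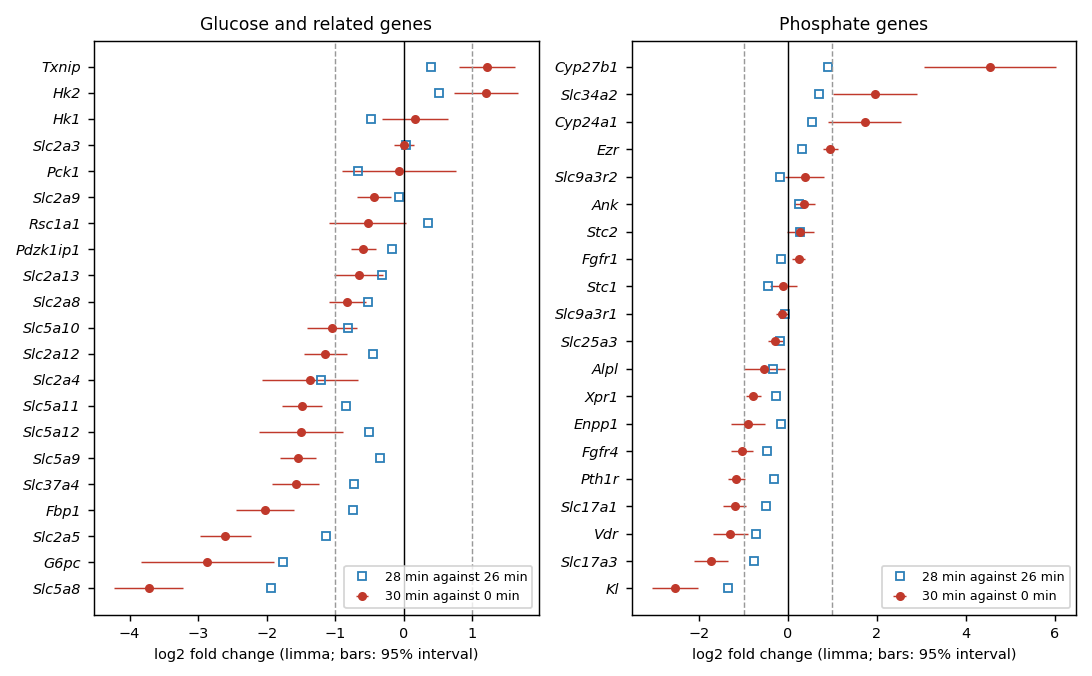
log2 fold change (horizontal axis, limma) of 21 genes of glucose and related transport (left) and 20 genes of phosphate handling (right) at 30 min against 0 min (filled points with 95% intervals) and at 28 min against 26 min (open squares), with dashed lines at 1 and -1. Slc5a8 (-3.72) and Kl (-2.55) lie lowest and Txnip (1.22) and Cyp27b1 (4.55) highest at 30 min.

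Some markers of proximal tubule cells were lower DEGs at times when 0 of the 9 genes were, and others were not. From 16 to 26 min 1 of 7 proximal tubule markers, Aqp1, was a lower DEG at each of the 6 times (log2 fold changes of -1.12 to -1.63 against 0 min). The other 6 were not DEGs, and 2.25% to 3.77% of all genes were DEGs in either direction at these times. Of the 3 markers of the S3 segment, the last part of the proximal tubule, 1, 2, 1, 2, 2 and 3 were lower DEGs in order of time, with a median of -2.16 at 26 min, where Slc5a1 was at 0.43. Of the 3 markers of the early segments, Slc5a12, Slc22a6 and Slc5a2 itself, 0 were DEGs at each of these times. Their median log2 fold changes against 0 min lay between -0.003 and 0.27. At 28 and 30 min the markers and several of the 9 genes were lower together. At 30 min against 0 min 6 of 7 proximal tubule markers were lower DEGs (5.59% of all genes), from -1.95 (Slc27a2) to -3.27 (Aqp1), and Hnf4a fell by 0.61 on the log2 scale. From 26 to 28 min 3 of 7 were lower DEGs (Aqp1, Miox and Gatm), against 1.06% of all genes. The 3 S3 markers fell most, Slc7a13 by 5.74, Slc22a7 by 4.85 and Acsm3 by 4.19 on the log2 scale at 30 min, and their sum went from 461 to 713 FPKM at 0 min to 11.3 to 24.2 FPKM at 30 min. Slc5a1, a carrier of the late proximal tubule that was not among the S3 markers, was at -0.77 at 30 min. Which segments held its RNA cannot be read from whole tissue. Of the early segment genes, Slc5a12 (-1.51) and Slc22a6 (-1.01) were lower DEGs at 30 min, while Slc5a2 (-0.33) did not pass. The sum of Slc5a12 and Slc22a6 was 303 to 318 FPKM at 0 min and 107 to 159 FPKM at 30 min. The part of tubule cell number or state in the values of the 9 genes was not tested.

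Markers of other cells and segments changed as well. The sum of the 3 injury genes was 4.80 to 26.3 FPKM at 0 min, 495 to 736 at 26 min, 1209 to 1449 at 28 min and 989 to 1295 at 30 min, with Havcr1 and Krt20 as DEGs at 30 min. The 2 red cell genes summed to between 99.98 and 440 FPKM at 0 min and between 568 and 1030 FPKM at 30 min, both higher DEGs, and 4 of 7 leukocyte genes were higher DEGs (sum of the 7 genes 8.98 to 13.7 FPKM at 0 min and 47.5 to 53.3 at 30 min). The macrophage gene Cd68 made up most of this sum, with means of 3.38 FPKM at 0 min, 19.5 at 16 min and 28.2 at 30 min, and Itgam, S100a8 and S100a9 were the other 3 DEGs. The general leukocyte gene Ptprc fell by 0.25 on the log2 scale (adjusted p = 0.0434), while Adgre1 (-0.25, adjusted p = 0.175) and Ly6g (-0.24, adjusted p = 0.109) did not pass. In the thick ascending limb both genes, and in the distal tubule 1 of 2 (Calb1), were lower DEGs at 30 min. The kidneys of 30 min were split in Umod, with 463, 454 and 2034 FPKM against 1247 to 1405 FPKM at 0 min. Replicate 3 at 30 min was thus above all kidneys of 0 min, and the call of Umod was not repeated without it. Of the fibroblast genes Col1a1 was a higher DEG (2.14) and Pdgfrb was at 0.80, and 0 of 3 podocyte, 0 of 3 endothelial and 0 of 2 collecting duct genes were DEGs by limma at 30 min. Of these last 8 genes, Podxl (0.85), Pecam1 (0.87) and Emcn (0.58) passed at any fold change, beside 52.3% of all genes. Ckm and Adipoq, markers of muscle and fat, summed to 24.5 FPKM in replicate 1 at 18 min, 19.3 in replicate 3 at 22 min and 7.12 in replicate 1 at 20 min, and to at most 1.91 FPKM in all other kidneys. Leaving out replicate 1 at 18 min took the adjusted p of Slc20a1 at 18 min to 0.0501, and leaving out either of the other two changed no limma call of the 9 genes. Their part in the values of the 9 genes was not tested.

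**Figure D5:**
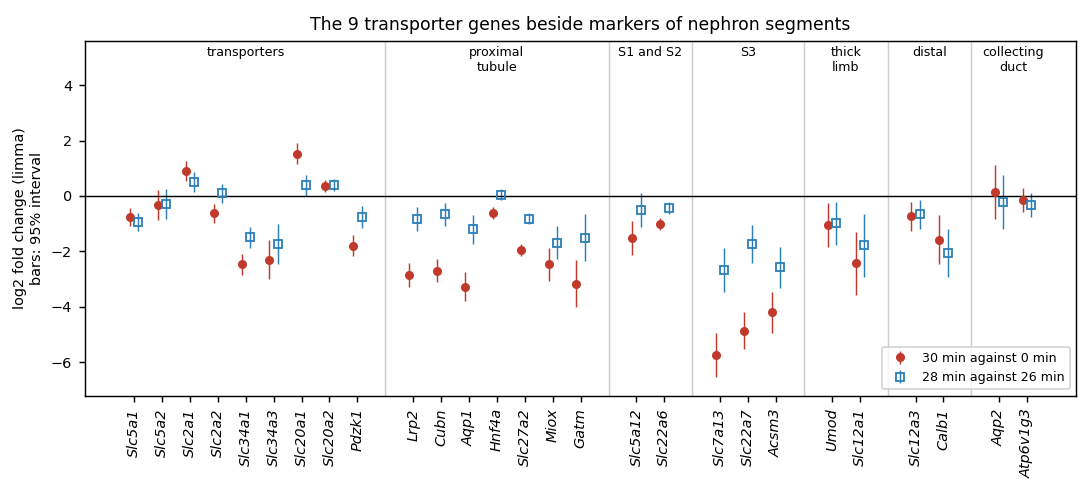
log2 fold change (vertical axis, limma, bars are 95% intervals) of the 9 transporter genes and of markers of nephron segments at 30 min against 0 min (filled points) and at 28 min against 26 min (open squares). The S3 markers lie lowest, down to -5.74 for Slc7a13, and Slc2a1, Slc20a1 and Slc20a2 are the transporter genes above 0 at 30 min.

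The genes with the most similar profile differed between the members. Over the 27 kidneys, and among 12346 genes of at least 1 FPKM on average, Pearson's r on the log2 scale was highest for Slc34a1 with Susd2 (0.99), Fam151a (0.99) and Slc22a22 (0.98), and for Pdzk1 with Gcnt1 (0.99), Fut9 (0.99) and Aadac (0.98). Slc34a3 was most like Gatm (0.97), Miox (0.97) and Slc34a1 (0.96). Slc20a1 was most like Ccn1 (0.96), Maff (0.96) and Gdf15 (0.95), Slc20a2 like Nap1l1 (0.93), Nfu1 (0.93) and Prpf31 (0.92), and Slc2a1 like Bag3 (0.94), Nipal1 (0.93) and Trim16 (0.91). For Slc2a2 they were Lipa (0.92), Parp1 (0.89) and Xrcc5 (0.87), for Slc5a1 Dusp9 (0.92), Atp1b1 (0.92) and Zfp706 (0.91), and for Slc5a2 Cpne4 (0.90) and Slc7a8 (0.88). Among the members themselves r ranged from -0.88 (Slc2a1 and Pdzk1) to 0.96 (Slc34a1 and Slc34a3). These are descriptions over kidneys of 9 groups that share libraries and the split between mild and severe ischemia.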

How the data were processed

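Total RNA of 27 left kidneys was sequenced by the authors on DNBSEQ-G400, and the labels give 3 kidneys per ischemia time. Per the deposited table the values are FPKM per gene. The submitters' processing notes name Bowtie2, RSEM and GRCm38.p6, without versions. The FPKM as deposited are neither log transformed nor quantile normalized, and the number of reads cannot be recovered from them, so no count test was run and counting error is unknown. Here log2(FPKM + 1) of 18188 genes (more than 0 FPKM in 3 or more kidneys) was quantile normalized and fitted with limma 3.58.1 in R 4.3.3, with 1 mean per time, moderated errors and Benjamini-Hochberg adjustment over all genes per comparison. Within-kidney differences between 2 genes were tested by exact permutation without quantile normalization. The limma step and the permutation step were tested on simulated data. The table held 0 columns of other samples. The members, the partner lists and the marker lists were chosen with earlier results of these data known. Named were all 9 members, from each partner list the DEG counts and up to 6 genes with the largest absolute log2 fold change at 30 min, Pdzk1ip1, Slc9a3r1 and Xpr1, and the 3 genes most like each member, of which 1 is not reported here. Slc2a4, Slc2a9, Slc2a12, Hk2 and Txnip were named after their values were seen. As alternatives, the pseudocount was set to 0.1 FPKM, the quantile step was dropped or replaced by TPM (each kidney scaled to 1 sum), a minimum of 1 FPKM in 3 kidneys was set, and use was made of a mean-variance trend, a replicate block, fits of 2 groups alone and leaving out each kidney.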

Additional observations from a re-analysis of the deposited data

How the results depend on the processing

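The counts of DEGs among the 9 genes were 3 at 28 min, 4 at 30 min, 2 at 28 against 26 min and 3 at 28 and 30 min against the mild kidneys, and none of the alternatives moved these by more than 1.5 times. Leaving out 1 kidney gave 3 at 28 min, 4 to 5 at 30 min, 2 to 3 at 28 against 26 min and 3 to 4 in the last comparison. For 26 against 0 min the count of 0 became 1 without quantile normalization and 1 with TPM, and 0 to 1 when 1 kidney was left out, the gene being Slc20a1. For 30 against 28 min the count of 1 became 2 without quantile normalization, 2 with TPM, 0 in the fit of the 2 groups alone, and 0 to 2 when 1 kidney was left out. In that fit of the 2 groups 0 of 16916 genes were DEGs, so its count of 0 is not particular to the 9 genes. The log2 fold change of Slc5a2 at 28 against 0 min, 0.06, ranged from -0.018 to 0.13 when 1 kidney was left out, and was -0.018 without replicate 2 at 0 min and -0.0087 without replicate 1 at 28 min. Among the pairs, Slc34a1 minus Slc34a3 (0.23) passed with a pseudocount of 0.1 FPKM (0.52) and with TPM (0.37). When 1 kidney was left out this difference ranged over 0.18 to 0.32, Slc5a2 minus Slc5a1 over 0.32 to 0.60 and Slc20a1 minus Slc20a2 over 0.19 to 0.32. The cause of these changes was not tested. All-gene medians moved by less than 0.1 on the log2 scale under every scaling.

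The replicate numbers were checked for pairing. Of 108 pairs of kidneys with the same number in different groups, 25 had deviations from their group means that correlated above 0.1. The correlations ran from -0.42 to 0.48 with a median of -0.01, and pairs with different numbers also had a median of -0.01. No general pairing by number was seen, but this check cannot show that no kidneys were paired. With the replicate number as a block the counts were 3 at 28 min, 4 at 30 min, 2 at 28 against 26 min, 1 at 30 against 28 min and 3 for the severe against the mild kidneys, and it changed no DEG call of the 9 genes, while the adjusted p of Slc5a1 went over 0.05 at 24 and 26 min. The filter of 1 FPKM and the mean-variance trend changed no DEG call of these genes either. With 3 kidneys a group, and a pseudocount that shrinks the changes of genes near 1 FPKM, small differences in Slc34a3 and Hk2 are poorly resolved.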
